A study of Drosophila melanogaster with 2 samples.

Results

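The regions described here were the weaker peaks of CG15710-GFP chromatin immunoprecipitation that lay inside coding exons, 654 of the 20111 pooled peaks that no reproducible peak overlapped and 654 of 30000 pooled peaks in all. A region belonged to the class when its summit, the base the deposited list marks as its highest point, fell in annotated coding sequence, outside any 5′ UTR and with no transcription start site (TSS) of any gene within 500 bp. No signal value entered the rule beyond the absence of an overlap with the authors' reproducible list (IDR list, for irreproducible discovery rate), which held the 8483 pooled peaks of highest signal. The material was whole Drosophila melanogaster pupae aged 24 h, both sexes together, of a transgenic line that expresses the CG15710 protein with GFP at its C-terminus. There was 1 group with biological replicates 1 and 3, both from that line and both precipitated with an antibody against GFP, and fly material without the transgene was not analysed here. Each result therefore compares peaks with other peaks or with coding sequence, and not 1 condition with another. In whole animals, a strong signal in few cells and a weak signal in many cannot be told apart.

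Coding exons carry the protein sequence and are rich in G and C in flies. Chromatin immunoprecipitation followed by sequencing reports where a tagged protein, or chromatin that comes down with it, is enriched. Peaks of sequence-specific transcription factors usually gather at promoters and in introns and intergenic enhancers, while coding exons lie in transcribed gene bodies. CG15710 has no other gene name in the annotation, and the assay was labelled as one for transcription factors.

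The sequences below show what the window of 50 bases on either side of the summit most often held beyond other coding sequence, repeats of the CAG and GCC kind. All are given 5′ to 3′ on the coding strand of the host gene (RefSeq copy of dm6), and capitals mark the match. The first 5 are from members of high signal that held CAGCAG on either strand, the letters of the opa repeat that codes for runs of glutamine in one frame. Read in the frame of the host gene, only the sgg match coded for glutamine. Those of bun, btsz and CG43901 read AGC, for serine, and that of cv-c read GCA, for alanine. The bun gene encodes a transcription factor of the TSC-22 family. In it the letters CAG followed each other several times, 23 bases downstream of the summit (chr2L:12498708-12498736, minus strand).
bun: atggcgacgacCAGCAGCAGCAGcaacaa
sgg (chrX:2659585-2659613, plus strand): ccagtgcatcgCAGCAGcaactgcagttg
btsz (chr3R:14819951-14819979, minus strand): gcgcgtcgcggCAGCAGcaacagtgagag
cv-c (chr3R:14432085-14432113, minus strand): ctcaacggcaaCAGCAGcacatgtgttgc
CG43901 (chrX:10906549-10906577, plus strand): agctgcaacaaCAGCAGcaacactagctg

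The next 4 held GCCGCC or its reverse complement GGCGGC, the 6-mer whose share at the members exceeded its share in coding sequence by most. The bun and cv-c peaks held both repeats. The cu and lark peaks were further members of high signal with this 6-mer, and lark encodes an RNA-binding protein.
bun (chr2L:12498750-12498778, minus strand): agcaacaaaatGGCGGCgttagccaacaa
cv-c (chr3R:14432151-14432179, minus strand): gaccacgcccaGCCGCCttaagactgtga
cu (chr3R:11203607-11203635, plus strand): aaacagcgcctGGCGGCgcgaaaactgga
lark (chr3L:7341429-7341457, plus strand): cgcggtccatcGCCGCCgggtcgcagata

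A last sequence shows how close to the start of translation a member could lie. At raskol, which encodes a Ras GTPase-activating protein, the summit fell on an annotated start codon, in capitals. The summit base is coding in 2 of the 9 raskol transcripts that span it.
raskol (chrX:17739260-17739288, plus strand): cgaaaaataacaaaATGttgcaagccgct

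The members stood near the bottom of the pooled list. Their deposited signal had a median of 36.06 (lowest 27.66, highest 149.6), against 54.28 for the 19457 other weaker peaks, and their median rank was 25297, against 19215. Among the others, the 411 weaker peaks in 3′ UTRs were also low, with a median signal of 42.37 and a median rank of 22789. The signal is the authors' own value for a peak, has no stated scale, and served here only for describing and ordering peaks inside a list. The rule removes peaks that overlap the IDR list, so no member could rank above 8484, and the spread over ranks was therefore read from all pooled peaks with a coding summit by the same position rule. These made up 0.0333% of the 3000 peaks ranked 1 to 3000, 0.433% of those ranked 9001 to 12000, 2.47% of those ranked 18001 to 21000 and 7.47% of those ranked 27001 to 30000. Of the last band's 224 coding summits, 223 were members. The pooled list ended at 30000 peaks, so how many coding summits lie below its end is not known from it.

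Reproducible peaks with a coding summit were few. Of 675 pooled peaks with a summit in coding sequence by the same rule, 21 were overlapped by an IDR peak and 654 were not. The IDR list itself had 14 coding summits, with signals between 163.5 (Socs36E, a suppressor of cytokine signalling) and 464.5 (CG5895). The others were in otp, bif, bip1, Tsp42Ee, Pvf3, Pde1c, klar, CG11668, Ubr1, CG10357, Snx27 and HisRS. Those in Pde1c and CG11668 had no overlapping peak in the replicate 1 list. A further 314 weaker coding summits lay within 500 bp of a TSS and were set aside by the rule. Just inside that limit were the peaks of tweek (504 bp from a TSS, signal 72.94) and mfas (509 bp, 50.91), and just outside it were those of Plp (498 bp, 36.80) and Ctu1 (494 bp, 38.03).

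**Figure D1:**
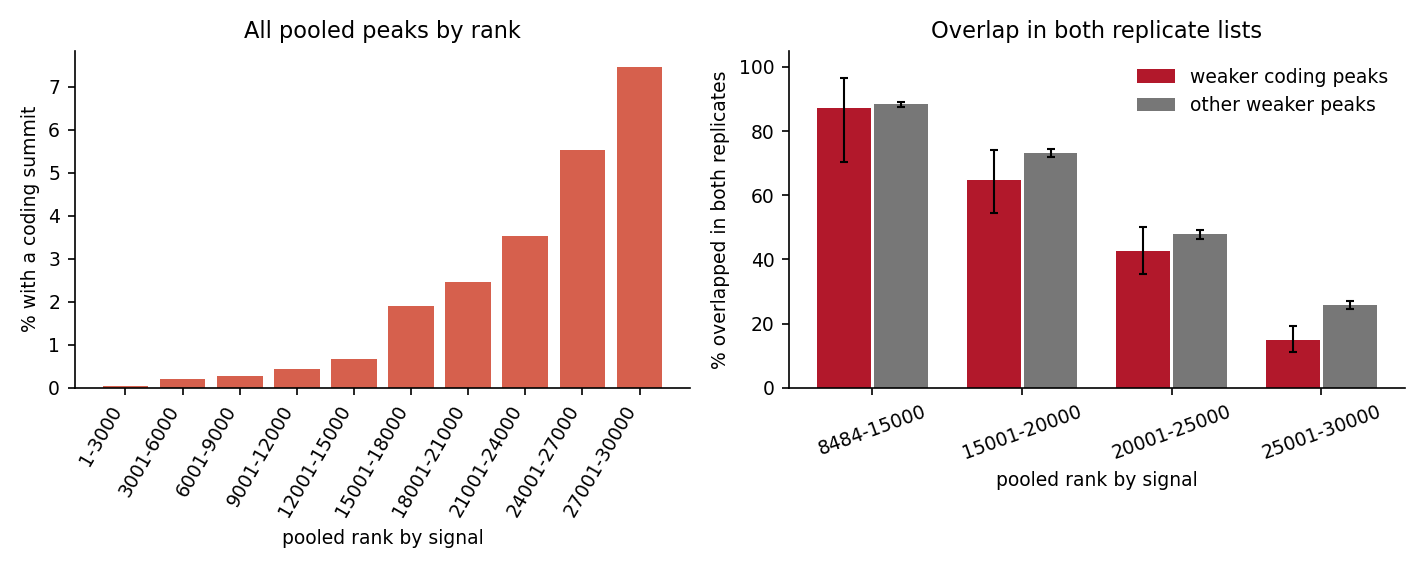
Left, share of all pooled peaks, IDR-overlapped ones included, with a coding summit by the same position rule, in bands of 3000 ranks by deposited signal (rank 1 is the highest). Right, share of weaker coding peaks and of other weaker peaks overlapped by at least 1 bp in both replicate lists, in 4 bands of pooled rank, with 95% exact binomial intervals. Coding summits made up 0.0333% of the highest band and 7.47% of the lowest, and overlap in both replicates fell with rank in either class.

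Few members reached a low q-value. The deposited −log10 q-value had a median of 0.5027 at the members and 1.153 at other weaker peaks. A q-value of at most 0.05 was given to 93 members (14.2%, exact 95% interval 11.6 to 17.1), against 46.2% of other weaker peaks and 45.2% of all weaker peaks. All intervals on shares reflect the number of peaks counted and nothing else, and the read depth behind the peaks is unknown.

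Both replicates held a peak at a minority of the members. Of the 654 members, 220 (33.6%, 30.0 to 37.4) were overlapped by at least 1 bp in both replicate lists, against 61.0% of other weaker peaks and 60.1% of all weaker peaks. The share was 44.8% at the 411 weaker peaks in 3′ UTRs, and 96.9% at IDR peaks. Replicate 1 alone overlapped 222 members, replicate 3 alone overlapped 128, and 84 (12.8%, against 3.87% of other weaker peaks) had no peak in either replicate list. Part of this gap went with rank. Among ranks 8484 to 15000 the share found in both replicates was 87.1% of 31 members (70.2 to 96.4), against 88.3% of other weaker peaks. It was 64.6% (54.4 to 74.0) against 73.3% at ranks 15001 to 20000, and 42.6% (35.4 to 50.1) against 47.8% at ranks 20001 to 25000. In these 3 bands the members' interval held the share of the other peaks. Among ranks 25001 to 30000, where 341 members lay, it was 15.0% (11.3 to 19.2) against 25.8%. The bands were chosen after the values were seen.

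Within the 220 members found in both replicates, the strength in one replicate was a loose guide to the other. The Spearman correlation of replicate 1 and replicate 3 signals over these peaks was 0.338, a description over peaks from the same 2 libraries. In 128 members (19.6% of all) both replicate summits also lay within 100 bp of the pooled summit. Each replicate list had its own weaker coding peaks by the same rule, 679 in replicate 1 and 935 in replicate 3.

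**Figure D2:**
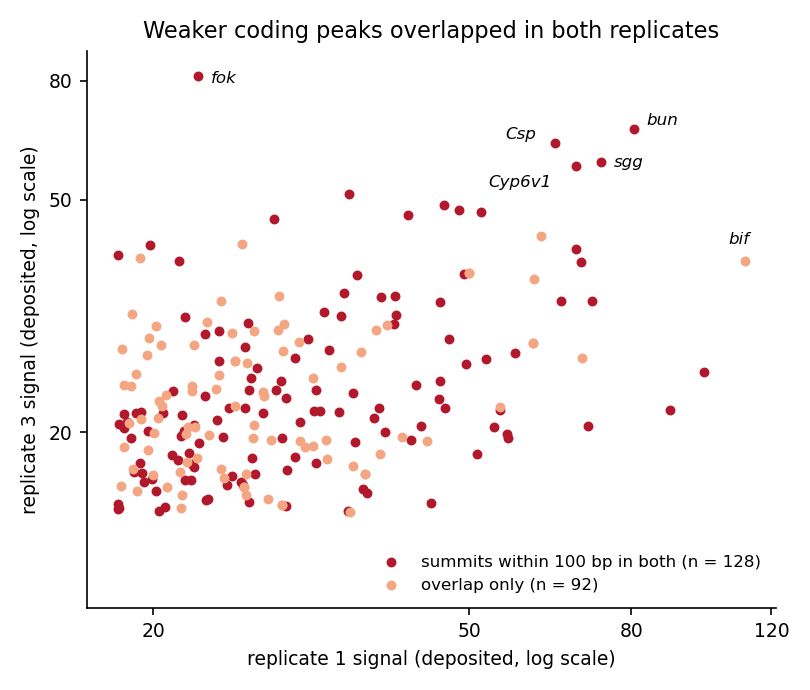
Deposited signal in replicate 3 against replicate 1 (both on log scales) for the 220 weaker coding peaks overlapped in both lists. Dark points are the 128 members with summits within 100 bp of the pooled summit in both replicates, and pale points are the remaining overlaps. bun, sgg, Csp and Cyp6v1 were high in both, while bif was high in replicate 1 and fok in replicate 3.

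The strongest member lay in the first coding exon of bun. Its pooled signal was 149.6, with 80.48 in replicate 1 and 66.05 in replicate 3, at chr2L:12498545-12498944 (dm6, as are all coordinates here). The summit was in codon 9 of a 762 bp coding sequence, 1412 bp from the nearest TSS, and both replicate summits lay within 1 bp of it. The exon is coding in 1 of the 6 bun transcripts that span it.

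The next strongest was in bif, which encodes an actin-binding protein of the photoreceptor cytoskeleton. Its signal was 136.5 in the pool, 111.1 in replicate 1 and 39.33 in replicate 3 (chrX:11683496-11683895, codon 747). The replicate 3 summit lay 134 bp away, so the replicates agreed less well here than at bun. An IDR peak with a coding summit lay in the same gene, at signal 447.4.

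In sgg, the fly glycogen synthase kinase 3 of Wingless signalling, a peak in the first coding exon (chrX:2659373-2659772, codon 75) had a pooled signal of 128.7, 73.33 in replicate 1 and 57.92 in replicate 3. A second sgg member lay in the last coding exon (chrX:2676970-2677369, codon 1129), with 72.73 in the pool, 52.50 in replicate 1 and 26.65 in replicate 3. Both were found in both replicates with summits within 21 bp.

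Csp encodes cysteine string protein, a chaperone of synaptic vesicles. Its peak in the second coding exon (chr3L:22269187-22269586) had 126.0 in the pool, 64.15 in replicate 1 and 62.53 in replicate 3, and it lay 545 bp from a TSS, near the limit of the rule. Cyp6v1, a cytochrome P450, had 125.7 in the pool, 68.07 in replicate 1 and 57.11 in replicate 3 (chrX:20658610-20659009, first coding exon, codon 133). Both replicate lists held each of these peaks, with summits within 58 bp of the pooled one.

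Other members of high signal were less even between replicates. Sdb had 119.8 in the pool, 98.59 in replicate 1 and 25.36 in replicate 3 (chr2R:14186474-14186873). Ttd14 had 112.6 in the pool, 89.46 in replicate 1 and 21.85 in replicate 3 (chr2R:18432561-18432960). All of the 10 members of highest signal were found in both replicates.

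The remaining 3 of these 10 were also higher in replicate 1 by the lists' own values, whose scales may differ. btsz, which encodes a synaptotagmin-like protein, had 113.3 in the pool, 71.41 in replicate 1 and 33.48 in replicate 3 (chr3R:14819786-14820185). cv-c had 112.4 in the pool, 68.14 in replicate 1 and 41.19 in replicate 3 (chr3R:14431933-14432332). raskol had 107.0 in the pool, 69.20 in replicate 1 and 39.17 in replicate 3 (chrX:17739074-17739473). At the other end, the 3 lowest were in sbb (27.74), CG6356 (27.67) and CG7737 (27.66), near the end of the list.

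All 654 members were 400 bp wide with the summit at the centre, as were most of the weak list (19228 of 19457 other weaker peaks had this width, against 2366 of 8483 IDR peaks). The summit of a member was thus the middle of a window of fixed width. The central 50 bases of every member occurred 1 time on the 6 arms searched, so no member's central sequence had a second exact copy there. Sequence outside these arms was not searched.

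Coding peaks were rich in G and C at their centre. The members' summits, with 50 bases on either side, had a median GC content of 55.4%, against 40.59% at other weaker peaks and 30.69% at IDR peaks. At the 14 IDR peaks with a coding summit the median was 54.95%, but the values ran from 30.69% to 69.31%. Their 25th percentile was 41.09%, against 50.50% at the members, and the strongest of them, in CG5895, had 30.7%. Coding sequence is itself GC-rich, so the members were set beside a coding grid, every 100th coding base of the genome that meets the same rule on UTRs and TSS distance (183601 positions), where the median was 53.47%. GC content exceeded 50% at 511 members (78.1%, 74.8 to 81.2), against 66.4% of the coding grid, 20.1% of other weaker peaks and 5.13% of IDR peaks. The same share was 77.2% in the replicate 1 list and 78.0% in the replicate 3 list.

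The rise was local. From the mean of the flanks centred 300 bp to either side, GC content at the members increased by a median of 6.44 percentage points, against 3.46 points at the coding grid, and the flank medians were 49.5% at the members and 50.5% at the grid. In the averaged profile the members reached 56.07% just right of the summit, where the grid was at 53.19%, while 488 bp to the left the members were at 45.82% and the grid at 47.21%. The larger difference at the members thus joined a higher centre with lower flanks. Their coding exons were also shorter (median 560 bp, against 821 bp at the grid) and their summits nearer an exon edge (112.5 bp, against 170 bp). The grid was not matched for either, and how far this went into the difference was not tested. IDR peaks had the opposite shape, with 31.77% just left of the summit.

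**Figure D3:**
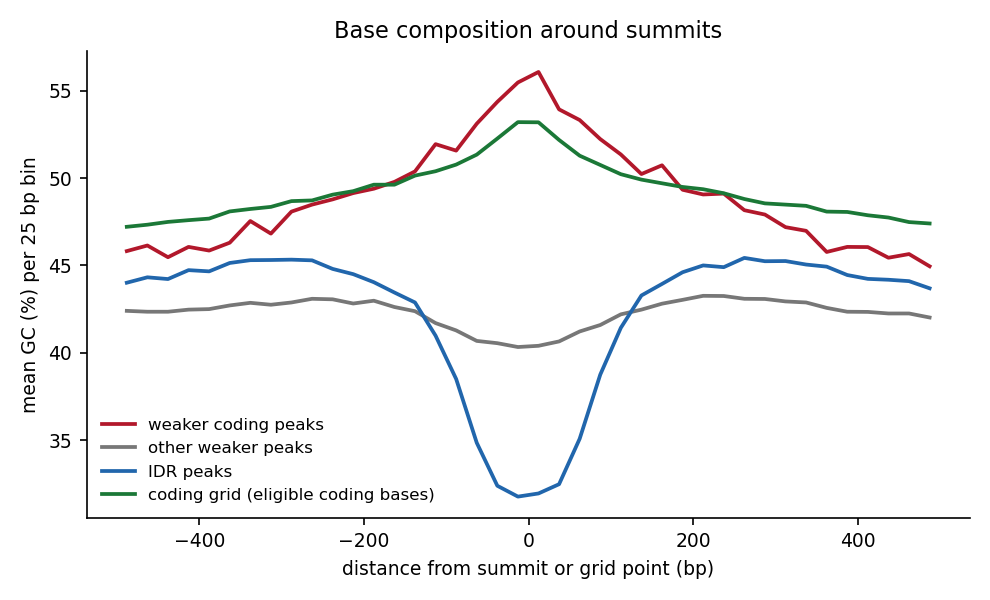
Mean GC content in 25 bp bins up to 500 bp on either side of the summit for weaker coding peaks, other weaker peaks and IDR peaks, and of the points of the coding grid. The members peak at 56.07% at the centre, above the grid at 53.19%, whereas other weaker peaks dip slightly and IDR peaks dip to 31.77%.

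The letters at the summits followed this in part. CAGCAG, on either strand, was in that window at 145 members (22.2%), against 17.4% of coding grid windows, 8.11% of all weaker peaks and 3.43% of IDR peaks. In the members' own flanks 300 bp away it was in 16.1% on the left and 17.0% on the right. GCCGCC was in 121 members (18.5%), against 11.7% of the coding grid, 10.2% of the left flanks and 10.7% of the right flanks. It was the first of 2080 merged 6-mers when ranked by the difference from the coding grid, a ranking made on these peaks and not a test. Several of the next ones overlapped these repeats in their letters, with GCAGCA in 22.6% against 16.1%. Others held CAA, with GCAACA in 13.8% against 8.38% and AACAAC in 10.7% against 6.53%. Not all GC-rich letters were raised, and GGAGGA was in 11.3% against 11.5%.

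Each replicate's own weaker coding peaks gave similar shares. CAGCAG was in 23.9% of the replicate 1 set and 23.6% of the replicate 3 set, and GCCGCC was in 16.2% and 16.4% of them. These sets share peaks with the pooled class. At the low end, AAAGAA was in 2.75% of the members, 3.98% of the replicate 1 set and 4.28% of the replicate 3 set, against 6.30% of the coding grid.

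The A- and T-rich letters common at reproducible peaks were near the coding level at the members. AAAAAA was in 3.06% of members, against 3.58% of the coding grid and 32.1% of IDR peaks. TATAAA was in 2.45%, against 2.65% of the grid and 24.5% of IDR peaks, and TAATTA, a homeodomain core, was in 1.22%, against 1.04% of the grid and 10.7% of IDR peaks. GAGAG, a core of GAGA factor sites, was in 12.2% of members and 12.3% of the grid. TATCGATA, the DNA replication-related element, and GGTCACAC, the M1BP motif, were in 0 members, against 0.0850% and 0.176% of the grid. All were searched on both strands, and a missing match says only that these letters were not in the window.

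Glutamine and alanine codons were slightly more frequent at the members than in the grid. Of the codons in the 33-codon windows around the summits, 5.63% coded for glutamine, against 5.33% in the coding grid, and 8.41% coded for alanine, against 7.34%. A run of at least 4 glutamine codons was within the window of 19 members (2.91%, 1.76 to 4.50), against 1.65% of the grid.

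Within genes, the members lay closer to starts than coding sequence in general. The rule already removes the first 500 bp, yet the median distance to a TSS was 1302 bp at the members and 1891 bp at the coding grid. Within 1000 bp lay 237 members (36.2%, 32.5 to 40.1), against 23.6% of the grid, and 36.4% and 33.0% of the replicate 1 and replicate 3 sets. The first coding exon of a gene with several held 17.4% of members (14.6 to 20.6), against 9.45% of the grid, and the first 10% of the coding sequence held 85 members (10.5 to 15.8%), against 5.17%. Internal exons held 44.6%, against 56.8%, while last exons held 26.9%, against 25.7%, and single coding exons held 11.0%, against 8.13%.

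Members also sat in genes with shorter coding sequence and nearer to exon edges. The host coding sequence had a median of 1611 bp, against 2556 bp over the grid, and the coding exon one of 560 bp, against 821 bp. The summit was within 50 bp of the edge of its exon's coding part in 183 members (28.0%, 24.6 to 31.6), against 20.7% of the grid. In the replicate sets the share was 26.4% for replicate 1 and 22.0% for replicate 3, the second much closer to the grid. A long gene gives the grid many points, so grid medians weight genes by their length, as peaks scattered evenly over coding bases would. Peaks of 400 bp often reached past such exons, and 32.7% of the members were wholly coding, against 45.5% of windows of that width at the grid.

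**Figure D4:**
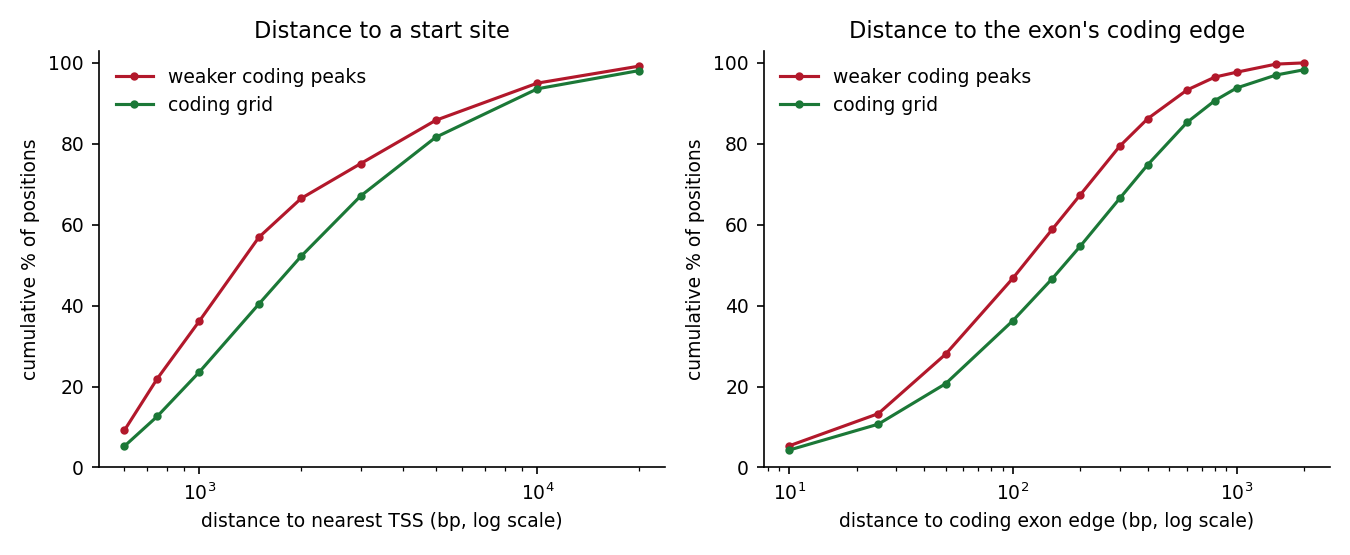
Cumulative share of weaker coding peaks and of coding grid points by distance to the nearest TSS (left) and to the edge of the coding part of the exon (right), both on log axes in bp. The members' curves lie above the grid, with 36.2% of members and 23.6% of the grid within 1000 bp of a TSS, and 28.0% and 20.7% within 50 bp of an edge.

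The members spread over the arms much as coding sequence does, with 17.7% on 2L (grid 18.3%), 19.6% on 2R (19.3%), 20.9% on 3L (19.4%), 23.5% on 3R (23.8%) and 17.9% on X (17.8%). The small arm 4 held 2 members (0.306%, 0.0371 to 1.10), against 1.37% of the grid. The summit base was coding in every transcript of the gene that spans it in 92.2% of members, against 91.2% of the grid. It lay inside a further gene in 77 members (11.8%, against 9.33%), for which the host is the gene whose coding sequence holds the summit.

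The host genes often had a reproducible peak at their promoter. Of 568 host genes, 238 (41.9%, 37.8 to 46.1) had an IDR summit within 500 bp of one of their TSSs, against 24.6% of the 13945 protein-coding genes. Counted by peak, 287 members (43.9%, 40.0 to 47.8) were in such genes, against 31.6% of the coding grid, and 45.5% and 40.2% of the replicate 1 and replicate 3 sets. The nearest IDR summit, in the gene or elsewhere, was a median of 2665 bp from a member and 6775 bp from a grid point. The members lay about as near to IDR summits as other weaker peaks did (median 3133 bp), and no member can lie closer than the rule on overlap allows.

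Most host genes had 1 member (492 of 568), while 67 had 2, 8 had 3 and 1 had 4. The gene with 4 was shn, which encodes schnurri, a zinc finger protein that represses targets downstream of Dpp signalling. Its members had pooled signals of 69.66, 36.58, 32.60 and 28.57 over 5744 bp, and only 1 of the 4 was found in both replicates. The genes with 3 were gro, bun, osp, Cht6, CG12851, rols, Pdk and cv-c. The intervals of 35 members overlapped another member, so neighbours are not always separate peaks.

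The 3 members of bun lay in different exons, at signals of 149.6, 57.52 and 38.41, and the 2 weaker ones had no replicate 3 peak. The cv-c members lay within 975 bp of 1 exon, at 112.4, 50.96 and 33.01, and 2 of them were found in both replicates. In rols, which encodes an adaptor protein of myoblast fusion, the signals were 95.70, 40.02 and 34.93. Each of these genes thus had 1 member of high signal and weaker ones, which were spread over 44697 bp in bun and 32912 bp in rols.

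In Cht6, a chitinase gene, 3 members shared 1 long exon over 1145 bp at 49.70, 43.01 and 36.39, and all 3 were overlapped in both replicates, though the first 2 overlapped the same replicate 3 peak. All 3 members of osp (59.97, 50.11 and 47.65) were overlapped in both replicates too. In gro, which encodes the corepressor Groucho, 3 members lay within 489 bp across the last 3 coding exons, at 37.89, 33.47 and 32.84, and neighbouring members overlapped the same replicate peaks. In Pdk, the pyruvate dehydrogenase kinase gene, a signal of 105.7 stood beside 54.20 and 38.12. CG12851, a gene known by its annotation number, had 65.00, 63.64 and 29.89.

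At 6 places, found after the values were seen, 4 or more members followed each other with gaps of at most 10000 bp. On 3L, 4 members within 4158 bp lay in Hsp22, CG4461, Hsp26 and Hsp67Ba, neighbouring genes of a small heat shock protein cluster. On 3R, 4 members within 7840 bp lay in E(spl)m8-HLH, a Notch target gene, and gro. On 2R, 4 members within 12939 bp lay in the tetraspanin genes Tsp42Ek, Tsp42El, Tsp42Eo and Tsp42Ep, and the other places were Pdk with ced-6, shn, and CG12851 with CG2765 and cGlr2.

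The genes of the ecdysone response, which the steroid hormone of moulting and metamorphosis controls, held 12 members in 9 of 36 genes. This was 1.83% of members (0.952 to 3.18), against 0.472% of the coding grid. The list's share was 1.62% in the replicate 1 set and 1.28% in the replicate 3 set. Of these 9 host genes, 8 had an IDR summit at a promoter, against 41.9% of all 568 host genes. Here and for the lists below, the share over all listed genes is not given. Such counts therefore do not set the host genes apart from the rest of their list. The median pooled signal of the 12 was 40.9, against 36.06 for all members, and 5 were found in both replicates, against 33.6% of all members.

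The strongest of them were in hid, a cell death gene, and both were found in both replicates. The first hid peak (chr3L:18184719-18185118) had 73.69 in the pool, 34.75 in replicate 1 and 34.64 in replicate 3. The second (chr3L:18171868-18172267) had 71.23 in the pool, 36.10 in replicate 1 and 37.12 in replicate 3. Eip93F, which encodes a transcription factor of late metamorphosis, had a member with 59.59 in the pool, 37.92 in replicate 1 and 21.15 in replicate 3, and another with 33.20 that no replicate peak overlapped.

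Further members of this list lay in Eip75B, a nuclear receptor gene (56.79), Eip74EF, which encodes an ETS factor (56.54), E23, an ABC transporter gene (44.86), and EcR, the ecdysone receptor gene (36.85 and 28.36). Those in Dronc, an initiator caspase gene (35.37), br, a BTB and zinc finger regulator (31.19), and tai, a coactivator of the receptor (29.41), were each found in 1 replicate. The 2 EcR peaks and the Eip74EF peak were found in replicate 1 and not in replicate 3.

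Genes of the Notch, Wingless, Hippo, EGFR and Dpp pathways held 17 members in 12 of 85 genes (2.60%, 1.52 to 4.13), against 1.23% of the grid, with 2.80% in the replicate 1 set and 2.35% in the replicate 3 set. The 4 members of shn and the 2 of sgg were part of this count. ex, which encodes the Hippo pathway protein Expanded, had 62.75 in the pool, 26.07 in replicate 1 and 28.00 in replicate 3. Of the 12 host genes, 5 had an IDR summit at a promoter, close to the 41.9% of all host genes.

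Homeodomain and patterning regulators held 13 members in 11 of 77 genes (1.99%, 1.06 to 3.38), against 0.748% of the grid, but the replicate sets had 0.884% and 1.07%. Of the 11 host genes, 1 had an IDR summit at a promoter, against 41.9% of all host genes. These counts are small and were not tested between lists. eya, a coactivator of eye development, had 75.24 in the pool and 57.73 in replicate 1 and no overlapping peak in replicate 3. Dr, a homeobox gene, had 51.75 in the pool and 27.78 in replicate 3 and none in replicate 1. hth, the homeobox partner gene of Hox proteins, had 46.96 in the pool, 23.25 in replicate 1 and 23.09 in replicate 3 at its stronger member. In all, 4 of the 13 were found in both replicates, and the 2 peaks of ap overlapped the same replicate peaks.

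BTB and zinc finger regulators held 9 members (1.38%, 0.631 to 2.60), against 0.615% of the grid, with 1.03% in the replicate 1 set and 0.856% in the replicate 3 set. The strongest were in hang (88.08 in the pool, 46.53 in replicate 1 and 22.03 in replicate 3), lola (68.33) and mod(mdg4) (53.09). The br member and the bab1 member were counted in this list and in one of those above.

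Heat shock protein genes, a list made after the values were seen, held 7 members in 6 of 25 genes (1.07%, 0.431 to 2.19), against 0.175% of the grid, with 0.884% in the replicate 1 set and 0.749% in the replicate 3 set. Hsp68, a gene of the Hsp70 family, had 89.96 in the pool, 35.30 in replicate 1 and 51.24 in replicate 3. Hsp83, the fly Hsp90 gene, had 2 members in its only coding exon. The stronger had 78.64 in the pool, 45.91 in replicate 1 and 33.45 in replicate 3. The other had 69.62 in the pool, 21.56 in replicate 1 and 39.23 in replicate 3.

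Those in Hsc70-4 (59.06), Hsp22 (58.73), Hsp67Ba (39.89) and Hsp26 (38.57) completed the list. Its median of 59.1 lay above the 36.06 of all members, 5 of 7 were found in both replicates, against 33.6% of all members, and 5 of the 6 genes had an IDR summit at a promoter, against 41.9% of all host genes. Near-identical copies in this family could share reads, though the central 50 bases of each member were found at 1 place only on the 6 arms searched.

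Cytoplasmic ribosomal protein genes, which are short and highly transcribed, held 4 members (0.612%, 0.167 to 1.56), against 0.0888% of the grid. They were RpL6 (33.62), RpL35 (32.25), RpL22-like (31.65) and RpL18 (29.57). All were near the low end of the signals and 1 was found in both replicates. The replicate 1 set had 3 and the replicate 3 set 2 in such genes.

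Other lists were at or below the coding level in the pooled class, and some less so in the replicate sets. Each list was a selection of genes and not a whole class, so its share describes the listed genes only. Sarcomere and muscle genes, many of them very long, held 1 member (0.153%, 0.00387 to 0.849), against 1.33% of the grid. The replicate 1 set also had 1 such peak (0.147%), while the replicate 3 set had 5 (0.535%). The member lay in if, an integrin gene, with 70.95 in the pool, 61.50 in replicate 1 and 43.42 in replicate 3. The 54 listed ion channel and synapse genes held 0 members (up to 0.562%), against 1.17% of the grid, with 0 in the replicate 1 set and 2 (0.214%) in the replicate 3 set. Csp (126.0), Task6 (54.11) and nAChRbeta3 (34.39), which had members, were not among these 54. The large cytoskeletal and cortical genes held 4 (0.612%, against 1.64%), in bif, scrib (77.29 and 35.83) and sdt (55.54), with 0.884% in the replicate 1 set and 0.749% in the replicate 3 set.

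The 62 listed chromatin regulators held 4 (0.612%, against 1.36%), in osa (40.19), Su(z)2 (34.62 and 30.29) and Psc (28.43). Kdm5 (64.80), SuUR (38.97) and JIL-1 (31.45), which also had members, were not among these 62. The replicate 1 set had 1.03% and the replicate 3 set 1.18% in this list, nearer to the grid than the pooled share. Cadherin and adhesion genes held 5 (0.765%, against 1.43%), of which robo2, an axon guidance receptor gene, had 41.49 and 39.91 and hbs 31.56. In the replicate 1 set this list stood at 0.736%, and in the replicate 3 set at 1.39%, close to the grid. Apical matrix genes held 5 (0.765%, against 0.988%), the 3 of Cht6 with obst-A (35.52) and nyo (32.07), and the replicate sets had 0.736% and 0.428%.

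The remaining lists had few members and shares close to the grid. Odorant, gustatory and ionotropic receptor genes held 6 (0.917%, against 0.908%), in Ir31a (34.42), Ir25a (33.12) and Or67a (32.38 and 31.29) among others, and none of the 6 was found in both replicates. RNA-binding regulators held 3 (0.459%, against 0.400%), in lark (74.56), AGO2 (35.28) and msi (28.15). Insulin and TOR genes held 2 (0.306%, against 0.283%), in Sesn (52.26) and Pdk1 (28.04), and cuticle protein genes 1, in Cpr73D (29.95). In the replicate 1 and replicate 3 sets the receptor genes had 0.442% and 1.18%, the RNA-binding regulators 0.736% and 0, the insulin and TOR genes 0.442% and 0.107%, and the cuticle protein genes 0 and 0.321%.

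**Figure D5:**
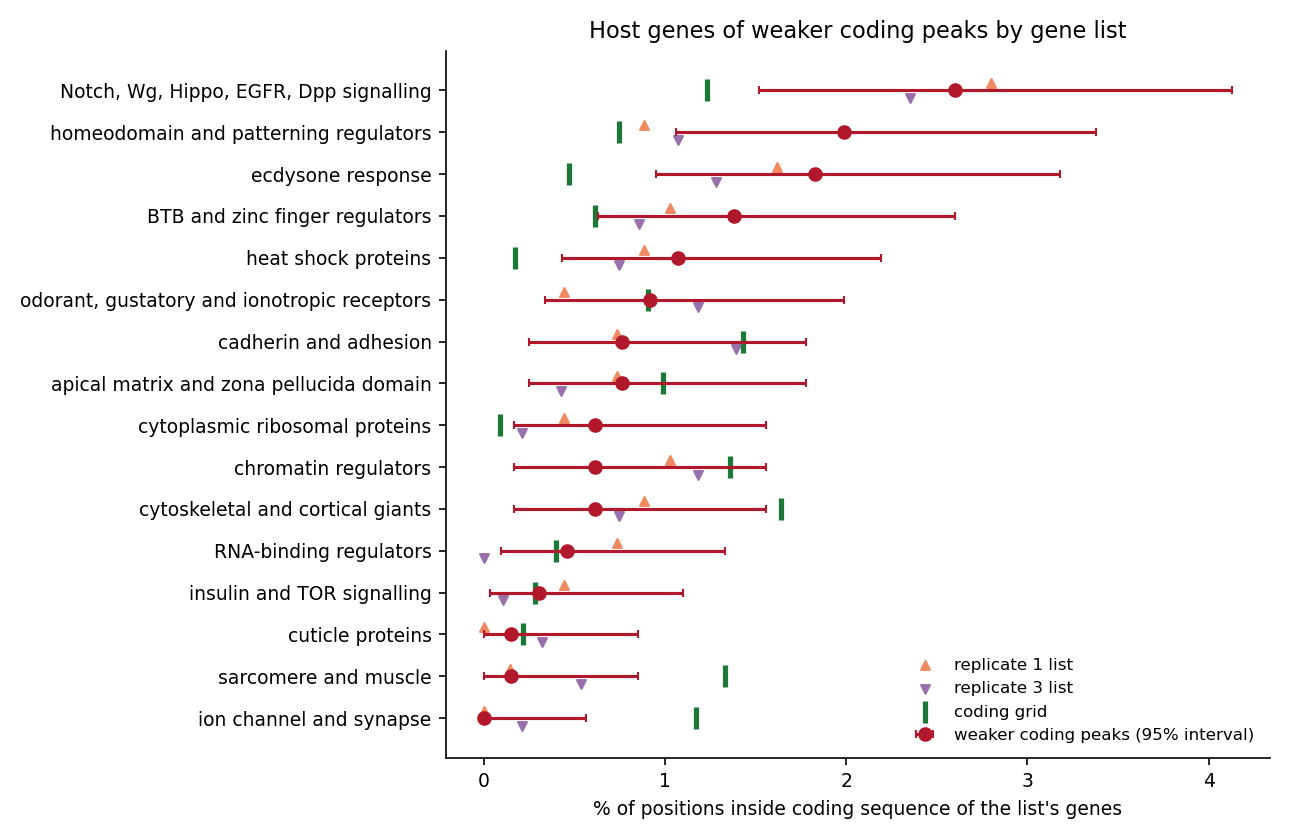
Share of weaker coding peaks (circles with 95% exact binomial intervals), of each replicate list's weaker coding peaks (triangles) and of the coding grid (bars) inside the genes of 16 lists. The listed ecdysone response genes stand at 1.83% of members against 0.472% of the grid, and the 54 listed ion channel and synapse genes at 0 against 1.17%.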

How the data were processed

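Whole pupae of a CG15710-GFP line were profiled by ChIP-seq in 2 biological replicates after sonication to 200 to 800 bp, per the labels. The authors deposited peak lists on dm6 for each replicate, for the pool and after an IDR step; the sources used here name no aligner, peak caller, IDR threshold or version. Each deposited peak has the authors' signal value, on an unstated scale, and a deposited −log10 q-value. No list gives read counts, so depth is unknown. Summits were start plus the deposited offset. Genes came from Ensembl release 115 (BDGP 6.54, without transposable elements, 23581 TSSs, 6 arms) and sequence from the RefSeq copy of the same assembly. Windows took 50 bases on either side of a summit, replicate overlap was at least 1 bp, and intervals are exact Clopper-Pearson at 95%. The coding grid took every 100th coding base that met the rule. Placement, overlap and motif search were checked on simulated data (Python 3.11.15, numpy 2.4.6, pandas 2.3.3, scipy 1.17.1, matplotlib 3.10.9). The members, gene lists and motifs were chosen with earlier results of these data known. Genes named were the 10 members of highest signal, the 5 highest with summits within 100 bp in both replicates, the host genes with most members, the members beside the rule's limit, the 3 lowest, up to 3 per list, and the coding IDR peaks; further members of the ecdysone, heat shock, ribosomal and 3 other lists, fok, and the local clusters were named after their values were seen. With 1 group no test was made. Alternatives changed the TSS distance, transcript rule, replicate, signal range, windows and match rule. Column 8 of each list, which held no values, and the signal tracks were not used.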

Additional observations from a re-analysis of the deposited data

How the results depend on the processing

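The 654 members became 776 with a TSS distance of 250 bp, 417 with 1000 bp, 603 when the summit had to be coding in every spanning transcript, and 117 among the weaker peaks of above-median signal. Among these 69.2% were found in both replicates, the median rank was 16544, 8 genes had 2 or more members, and 52.1% lay in genes with an IDR summit at a promoter. The share found in both replicates, 33.6%, was 19.6% when summits had to lie within 100 bp. Taking 1 replicate list in place of the pool gave 679 to 935 members, 24.0% to 33.1% found in the other replicate too, a median rank of 24286 to 25383, 22.0% to 26.4% within 50 bp of an exon edge, 40.2% to 45.5% in genes with an IDR promoter, 83 to 99 genes with 2 or more members, and a median GC content of 55.4% in both. A window of 100 bases on either side gave a median GC of 53.7%, and 46.8% of members lay within 100 bp of an edge. With 250 bp from a TSS, 40.1% lay in genes with an IDR promoter. The median GC difference from the left flank, 5.94 points, was 6.93 with 250 bp, 7.92 above the median signal, 4.95 against the right flank, and 4.95 to 5.94 with 1 replicate list. The other alternatives run changed no count by 1.5 times or more. They moved no other value further from its main value than taking 1 replicate list did. Some still fell outside the range of the 2 replicate lists. With 1000 bp from a TSS, 46.3% lay in genes with an IDR promoter and the median rank was 25680. The GC difference was 6.47 with the wider window and the flank 500 bp away. The lists carry no read depth, no list without the transgene was used, and 30000 peaks per list bound what a weak class can show.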
